A study of Drosophila melanogaster with 3 samples.

Results

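The BTB factor genes treated here are Trl, psq, lola, ttk, ab, bab1, bab2, rib and chinmo, 9 of the 13945 protein-coding genes on the chromosome arms. The peaks came from a list that was reproducible between replicates (the IDR list, named for the irreproducible discovery rate that selects it), from a relaxed list of the pooled replicates and from a relaxed list of each replicate. A peak was counted for one of the genes when its summit lay inside the gene body or was nearer to a protein-coding transcription start site of that gene than to any other. By this rule 38 of the 5746 reproducible peaks and 208 of the 30000 pooled peaks belonged to the 9 genes, and so did 217, 216 and 203 of the 30000 peaks listed for replicates 1, 2 and 3. The study mapped the Pax protein Gooseberry-neuro (Gsb-n) on the genome of whole Drosophila melanogaster embryos aged 4 to 14 hours. All embryos came from 1 transgenic line that stably expresses gsb-n with green fluorescent protein (GFP) at its C terminus, and an anti-GFP antibody was used for chromatin immunoprecipitation with sequencing. There are 3 biological replicates of this 1 group and no second condition, and the labels name no driver promoter and no sex. Chromatin came from the whole embryo, so the cells in which a site was occupied are unknown. No library of a control is analysed here, although the deposited notes name a control file in the peak calling, and the lists give peak heights but no read counts, so depth is unknown.

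Proteins with a BTB domain pair with themselves or with each other through that domain, and most of those considered here carry a DNA-binding region of zinc fingers or of the Psq type beside it. The GAGA factor, encoded by Trl, binds short GAGAG repeats and keeps promoters free of nucleosomes, and Psq recognises similar repeats and takes part in Polycomb-mediated silencing. Several of the other genes set the identity of neurons and of epithelial tissues in the embryo, where Gsb-n itself acts in the nervous system.

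The sequence at the strongest reproducible peak of 6 of the genes is given below as the plus strand of dm6 (RefSeq copy of release 6), 100 bp to either side of the summit. Matches to GAGAG, the site of the GAGA factor, and to TAATTA, a core bound by homeodomains, are in capitals on whichever strand they lie. The 6 summits lay in introns or between genes, outside the exons of protein-coding genes. The windows are chr3L:14759429-14759629 for Trl, chr2L:1638668-1638868 for chinmo, chr2L:11209042-11209242 for ab, chr3L:1166343-1166543 for bab2, chr3L:1086331-1086531 for bab1 and chr3R:31723309-31723509 for ttk.
Trl: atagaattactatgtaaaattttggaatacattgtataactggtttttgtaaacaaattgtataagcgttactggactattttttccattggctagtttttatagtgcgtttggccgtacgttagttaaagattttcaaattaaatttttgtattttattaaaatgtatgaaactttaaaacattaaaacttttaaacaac
chinmo: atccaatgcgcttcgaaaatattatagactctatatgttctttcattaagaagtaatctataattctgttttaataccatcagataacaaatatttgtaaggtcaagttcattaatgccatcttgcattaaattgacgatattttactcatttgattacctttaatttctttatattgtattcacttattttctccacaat
ab: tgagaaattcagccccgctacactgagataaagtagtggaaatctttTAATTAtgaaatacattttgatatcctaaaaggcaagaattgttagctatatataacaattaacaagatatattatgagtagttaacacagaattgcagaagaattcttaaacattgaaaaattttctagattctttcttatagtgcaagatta
bab2: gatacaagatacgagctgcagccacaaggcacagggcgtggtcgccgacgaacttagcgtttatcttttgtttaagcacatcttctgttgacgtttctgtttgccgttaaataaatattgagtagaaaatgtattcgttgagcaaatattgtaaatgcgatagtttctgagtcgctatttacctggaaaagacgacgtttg
bab1: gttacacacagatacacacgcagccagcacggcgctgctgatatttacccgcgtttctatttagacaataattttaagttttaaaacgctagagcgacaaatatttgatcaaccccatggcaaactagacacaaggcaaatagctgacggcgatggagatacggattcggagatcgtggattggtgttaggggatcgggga
ttk: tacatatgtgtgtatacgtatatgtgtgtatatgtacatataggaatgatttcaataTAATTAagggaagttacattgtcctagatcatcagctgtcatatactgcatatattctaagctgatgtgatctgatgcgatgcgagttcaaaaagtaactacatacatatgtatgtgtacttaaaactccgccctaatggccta
None of the 6 windows held GAGAG, and the windows of ab and ttk held 1 TAATTA each. The windows of Trl, chinmo and ab were the poorest in G and C, with a GC content of 23.9%, 25.9% and 27.4%, and those of bab1 and bab2 the richest, with 45.8% and 40.8%.

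Peaks were found at every one of the 9 genes, while 23.9% of all protein-coding genes and 57.1% of those spanning 10 kb or more had at least 1 reproducible peak. All 9 had at least 2 reproducible peaks, against 9.09% of all protein-coding genes and 34.4% of the 1977 genes whose body spans 10 kb or more, a length that each of the 9 exceeds. At least 4 peaks were present at 5 of the 9, Trl, psq, lola, rib and chinmo, against 3.09% of all genes and 15.2% of the long ones. The median was 4 peaks per gene for the 9, against 0 for all genes and 1 for the long genes. The gene bodies ranged from 11.3 kb for rib to 64.7 kb for bab1, with a median of 50.4 kb against 2.17 kb over all genes. Over the 465.1 kb of sequence assigned to them, the density was 8.17 reproducible peaks per 100 kb, against 4.29 over all arms, and 44.7 pooled peaks per 100 kb, against 22.4 over all arms. The genes were picked with earlier results of these data known, so these counts are a description and were not tested. Among the stronger 50% of the list 8 of the 9 still had a peak, ttk being the exception, against 15.4% of all genes. Within 1000 bp of a start site 4 of the 9 had a summit, against 15.6% of all genes. Neither these last counts nor the densities were set beside long genes. Long genes share only the 10 kb minimum with the 9, so no count here is matched for length beyond that.

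The 9 genes differed in how many of their pooled peaks were reproducible. Trl, with 8 pooled peaks, kept 4 of them (50%), and rib kept 4 of 14 (28.6%). At the other end bab1 had 36 pooled peaks, as many as psq, of which 2 were reproducible (5.56%), and ab had 25 of which 2 were (8.0%). Over the 9 genes 18.3% of pooled peaks were reproducible, against 19.2% of all pooled peaks. Per length, Trl and rib had 25.0 and 24.4 reproducible peaks per 100 kb, and bab1 and ab had 1.95 and 3.71, below the value over all arms.

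**Figure D1:**
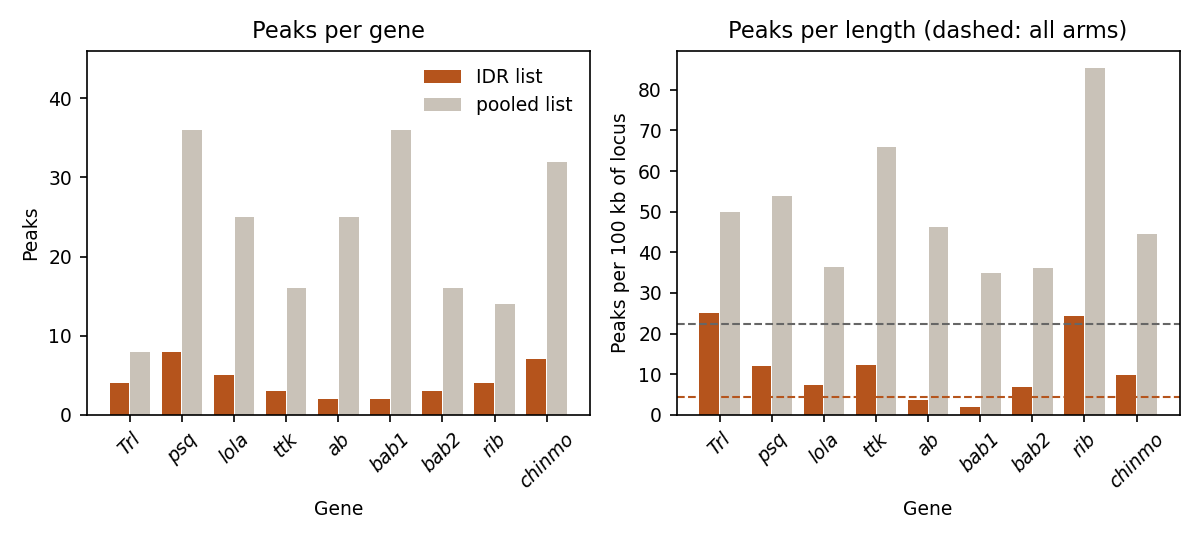
Peaks assigned to each of the 9 BTB factor genes (left, number of peaks) and the same per 100 kb of assigned sequence (right), for the IDR list and the pooled list; dashed lines give the density over all arms (4.29 and 22.4 peaks per 100 kb). Trl and rib have the highest density of IDR peaks and bab1 the lowest.

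Trl carried the highest peak of the group. It spans chr3L:14759326-14759720, in an intron 1520 bp from the nearest start site, and its height of 1950 on the authors' scale placed it at rank 25 of the reproducible list. Its rank was 17, 35 and 32 in the lists of replicates 1, 2 and 3, or 28 ± 9.64 (SD, n = 3), and the signal there was 793.6, 782.0 and 388.2 on scales that differ between the lists. It is the only peak of the 9 genes among the 100 highest. The other 3 Trl peaks were much lower, at ranks 1720, 3081 and 3461, and the 4 summits lay within 4322 bp of one another near the start of the 13.1 kb gene. The peak at rank 3081 had its summit 109 bp from a start site and was at rank 2795, 3105 and 4191 in the replicates. The weakest, chr3L:14755918-14756333, was the least even of the 4, at rank 1565 in replicate 1 and 6772 in replicate 2, with no summit within 100 bp in replicate 3. The body of Trl contains CG42507, which shares one of its start sites, so 2 of these peaks lie in both genes.

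psq and lola are neighbours on chromosome arm 2R, 14597 bp apart and pointing away from each other. psq had 8 reproducible peaks, the most of the group, and 86 genes in all had as many or more (0.617%). Its highest peak, chr2R:10559068-10559483 in an intron, was only at rank 1834, with replicate ranks of 1079, 6571 and 1406, so that replicate 2 ranked it far lower than the other replicates. A second psq peak with a summit 207 bp away overlaps it and was more even, at ranks 2791, 3486 and 2804. Another overlapping pair lay 24223 and 24425 bp into the gene, and 1 intronic peak, 46333 bp in, was nearer to the start of CG11883 than to one of psq. No psq peak lay within 500 bp of a start site.

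lola, whose many zinc-finger isoforms act in axon growth and guidance, had 5 reproducible peaks. The highest, chr2R:10540413-10540828 in an intron near the start of the gene, was at rank 1235, and at 1406, 1268 and 1646 in the replicates. A peak at chr2R:10541733-10542148, 271 bp from a lola start site, varied more, at ranks 962, 7182 and 3483. The summit farthest from the lola start was 57633 bp into the gene, 406 bp from the start site of the nested gene pre-lola-G, and had no counterpart within 100 bp in replicate 3. One further peak lay between lola and psq, 4337 bp before lola and 368 bp from the start of the non-coding gene acal.

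chinmo, a gene known for setting the temporal identity of neurons, had 7 reproducible peaks, and 6 of them lay before the gene. These 6 summits were 18378, 12490, 7835, 4530, 2461 and 1829 bp before the annotated start, and the seventh was in an intron 19431 bp into the gene. The highest, chr2L:1638635-1638973, was at rank 367, and at 214, 787 and 316 in the replicates, or 439 ± 306 (SD, n = 3). The peaks 7835, 2461 and 1829 bp before the gene followed at ranks 498, 647 and 652 of the reproducible list, and each of them was at rank 909 or higher in all 3 replicates. The remaining 3 chinmo peaks were between ranks 3662 and 5533, and 2 of them were only at rank 14636 and 12898 in replicate 3. When non-coding genes were also allowed to compete for summits, 4 of the 6 upstream peaks were nearest to lncRNA:CR45695 and 1 to lncRNA:CR44603.

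The peak nearest to the chinmo start, centred 1829 bp before it, is shown because its TAATTA lies within 10 bp of the IDR summit. It was chosen after this match was seen. The summits of replicates 1, 2 and 3 lay 15, 39 and 66 bp from the IDR summit, farther than that distance. The window is chr2L:1649329-1649529, plus strand.
chinmo, nearest upstream peak: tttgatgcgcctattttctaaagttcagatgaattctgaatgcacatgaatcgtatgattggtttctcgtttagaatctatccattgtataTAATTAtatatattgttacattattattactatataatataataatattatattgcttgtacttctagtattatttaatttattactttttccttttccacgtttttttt

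rib, needed for the shaping of salivary gland and tracheal tubes, had 4 reproducible peaks within 3968 bp, all inside its body. Of these, chr2R:19272186-19272441 was at rank 478 and at 662, 333 and 515 in the replicates, and chr2R:19271354-19271659 was at rank 593 and at 632, 458 and 874. Both were thus high in every replicate. The other 2 were weak: one, whose interval overlaps that at rank 593, was at 9825, 4248 and 21904 in the replicates, and the one 248 bp from a start site had a summit within 100 bp in replicate 1 alone.

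ab, which sets the dendrite form of sensory neurons, had 1 high and 1 low peak. The high one, chr2L:11209023-11209271, lay 1536 bp before the gene at rank 638, and at 698, 472 and 1050 in the replicates. The low one was intronic, at rank 3865. ttk, which encodes a zinc-finger repressor of neuronal fate, had the weakest set of the group. Its 3 peaks were at ranks 4279, 4754 and 5635, and the highest, chr3R:31723201-31723616 in an intron, was at 3976, 5261 and 3936 in the replicates.

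bab1 and bab2 are paralogues that pattern leg segments, ovary and abdomen, and lie next to each other, 39340 bp apart. bab2 had 3 reproducible peaks and bab1 had 2, and none was above rank 2116. The highest bab2 peak, chr3L:1166341-1166546, was intronic and at ranks 1655, 2185 and 1920 in the replicates, and a second one lay 666 bp from it. The third bab2 summit fell 6 bp from the only annotated bab2 start site, at rank 3833, and at 4770, 3741 and 3260 in the replicates. The highest bab1 peak was in an intron 14658 bp into the gene, at ranks 2349, 2816 and 2373, and the other lay 1318 bp before the gene, at 2869, 3971 and 2717. All 5 bab peaks were among the top 5746 of every replicate.

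The stretch of the bab2 peak that precedes the start site (chr3L:1177277-1177370) and the window of the bab1 peak before the gene (chr3L:1102307-1102507) are shown because both hold GAGAG, which appears here as CTCTC on the plus strand. They were chosen after their matches were seen.
bab2, before the start site: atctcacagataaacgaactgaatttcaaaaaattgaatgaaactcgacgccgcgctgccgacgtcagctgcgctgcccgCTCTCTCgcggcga
bab1, upstream peak: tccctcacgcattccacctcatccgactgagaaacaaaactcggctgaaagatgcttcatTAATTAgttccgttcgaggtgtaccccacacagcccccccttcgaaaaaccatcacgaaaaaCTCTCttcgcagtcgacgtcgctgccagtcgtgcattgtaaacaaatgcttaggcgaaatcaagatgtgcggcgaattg

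**Figure D2:**
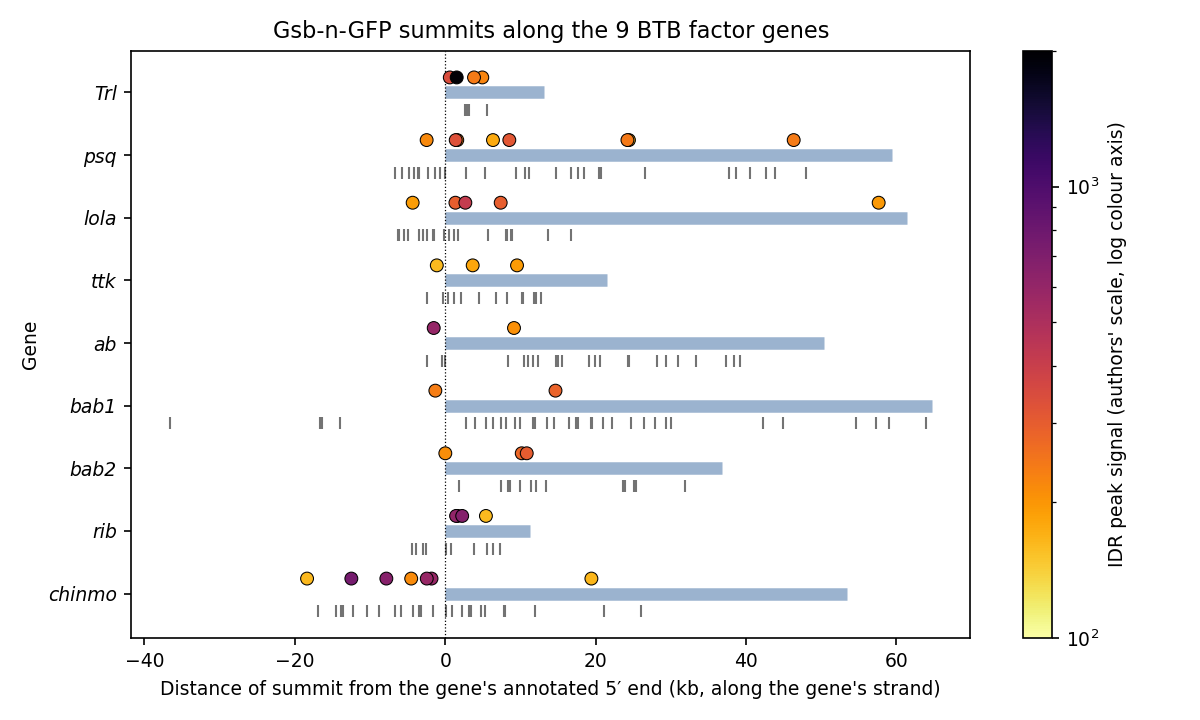
Summits along each of the 9 genes, in kb from the annotated start along the gene's strand (negative values lie before the gene): blue bars are gene bodies, circles are the 38 IDR peaks coloured by signal on a log colour axis, and grey ticks below are the other pooled peaks. The 6 upstream peaks of chinmo, the packed peaks of Trl and rib and the strong Trl peak at 1950 can be seen.

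The peaks of the BTB genes lay mostly a short way from start sites rather than at them. Of their 38 summits, 5 (13.2%, 95% Wilson interval 5.75 to 27.3) were within 500 bp of any protein-coding start site, against 2026 of 5708 other reproducible summits (35.5%, 34.3 to 36.7) and 741 of the 3030 other summits at genes of 10 kb or more (24.5%, 23.0 to 26.0). The comparison with long genes was added after the first was seen. In the replicates' own 5746 highest peaks the share was 14.6%, 16.2% and 15.8% at the BTB genes, or 15.5% ± 0.819, and 36.2%, 35.8% and 42.8% at all other peaks, or 38.3% ± 3.91 (SD, n = 3). It was lower at the BTB genes in 3 of 3 replicates, with a difference of -22.7 ± 3.82 percentage points. An exact paired permutation test over 3 replicates cannot go below p = 0.25, the value it gave (two-sided, adjusted exact p = 0.5 over 3 tests). The replicates share many of the same sites, so their spread does not measure how peaks vary between genes. Long genes were compared in the IDR list only, not in the replicates. The distance band from 500 to 5000 bp held 25 of the 38 summits (65.8%), against 36.0% of the others and 41.1% of those at long genes. Introns held 22 (57.9%) and intergenic sequence 11 (28.9%), against 38.3% and 24.8% of the others and 64.1% and 10.4% of those at long genes, so the intronic share was above that of all other peaks and below that of long genes. No summit was in an exon over 500 bp from a start site. The median distance to a start site was 1616 bp, against 1558 bp for the others and 2579 bp for those at long genes.

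**Figure D3:**
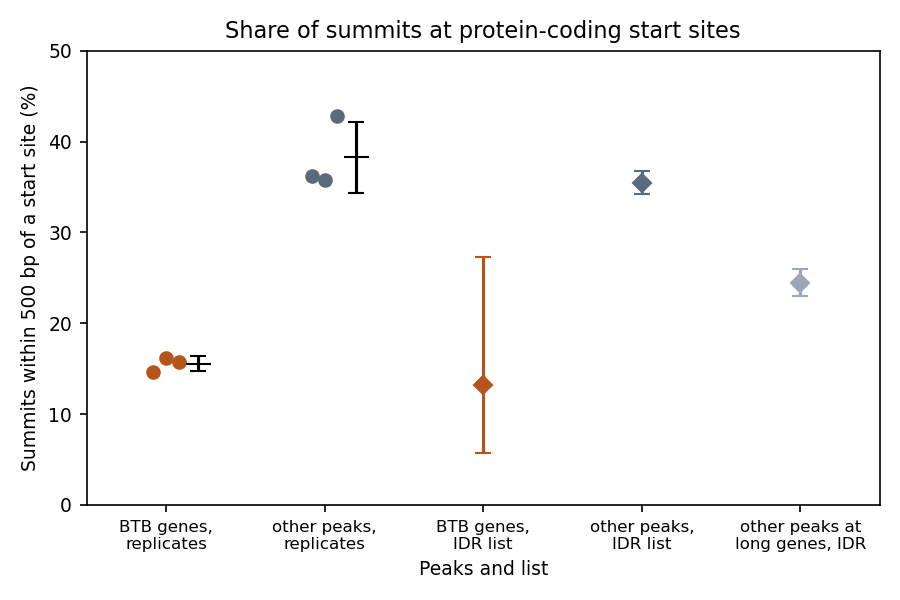
Share of summits within 500 bp of a protein-coding start site: circles are the 3 replicates' top lists with mean and SD beside them, and diamonds are the IDR list with 95% Wilson intervals. The BTB genes lie at 13.2% to 16.2%, all other peaks at 35.5% to 42.8% and other IDR peaks at genes of 10 kb or more at 24.5%.

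Counted by start site, the BTB genes were near the background for reproducible peaks. Of their 26 annotated start sites, 4 (15.4%) had a reproducible summit within 500 bp, against 16.0% of all 19252 protein-coding start sites. For pooled peaks the count was 19 of 26 (73.1%), against 36.6% of all. The share over start sites of long genes was not taken for either list. The 26 start sites belong to only 9 genes, so they are not separate observations, and the difference was not tested. All 4 lola start sites had a pooled summit, and the bab1 start site had none.

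The BTB peaks were of ordinary height and about as repeatable as others. Their median signal was higher than that of 46.4% of the reproducible list, against 50% for the others, and 4 of the 38 (10.5%), at Trl, chinmo and rib, were among the 574 highest, against 9.99% of the others. In the replicates' top lists the median percentile was 51.3, 40.5 and 48.5 at the BTB genes and 50, 50.1 and 50 elsewhere (exact paired permutation p = 0.5, adjusted 0.5, n = 3), so they differed by less than the spread between replicates. The top lists held 41, 37 and 38 BTB peaks, or 38.7 ± 2.08 (SD, n = 3). Per gene, Trl gave 4, lola 6, ttk 2, ab 2, rib 3 and chinmo 7 in each replicate, while psq gave 9, 6 and 8 and bab1 gave 4, 4 and 2. Of the 38 reproducible peaks, 22 (57.9%, Wilson interval 42.2 to 72.1) were among the top 5746 of all 3 replicates, against 56.8% of the whole list, 11 were in 2 of them and 5 in 1. In the full lists 33 of 38 (86.8%) had a summit in all 3 replicates, against 89.4% of the whole list. The reproducible list was made from these replicates, so these shares are a description.

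**Figure D4:**
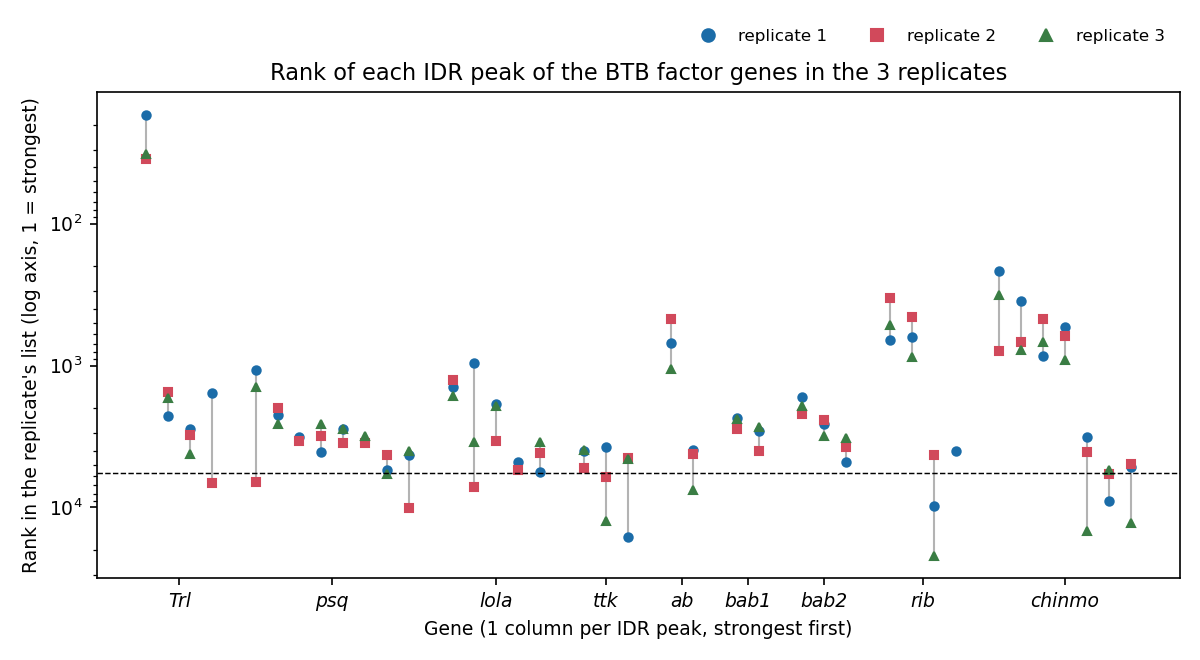
Rank of each of the 38 IDR peaks in the list of each replicate (log axis, 1 is the strongest), by gene and with the strongest first; a missing marker means no summit within 100 bp, and the dashed line marks rank 5746. The strongest Trl peak is at ranks 17 to 35 in every replicate.

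GAGAG, the known site of the GAGA factor and of Psq, was found at BTB gene summits about as often as elsewhere. Of the 38 windows, 11 (28.9%, Wilson interval 17.0 to 44.8) held at least 1 match on either strand, against 23.2% (22.1 to 24.3) of the other 5708 windows. Of the windows over 500 bp from a start site, 8 of 33 (24.2%) held it at BTB genes, against 23.7% of the others. Among all other windows at long genes, 25.3% held it. Windows 1000 bp to either side held it in 25.0% of cases at BTB peaks and in 22.8% at other peaks. In the replicates' top lists the share was 22.0%, 29.7% and 34.2% at BTB genes, or 28.6% ± 6.20, and 22.3%, 25.2% and 24.2% elsewhere, or 23.9% ± 1.48 (SD, n = 3; exact paired permutation p = 0.5, adjusted 0.5). The longer repeat GAGAGAG, whose windows are all GAGAG windows as well, was in 4 of 38 (10.5%, Wilson interval 4.17 to 24.1) and in 4.41% of the others (3.91 to 4.98). Its share in the replicates was 9.76%, 18.9% and 15.8% at BTB genes and 3.87%, 5.55% and 4.98% elsewhere. Within the group the repeats were concentrated: the psq peak 2476 bp before the gene held 9 GAGAG matches, the highest lola peak 5 and the lola peak at pre-lola-G 4. Overlapping matches were counted, so 1 long repeat can give several of them, and these are not counts of separate sites. The 4 Trl windows and both ab windows held none.

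TAATTA was in 10 of the 38 windows (26.3%, Wilson interval 15.0 to 42.0), against 17.2% (16.3 to 18.2) of the others, and in 14.5% and 12.3% of the windows 1000 bp away. The replicates gave 29.3%, 27.0% and 28.9% at BTB genes and 18.7%, 16.5% and 16.2% elsewhere, higher in each of the 3, a relation that was not tested. The windows were psq (3), Trl and chinmo (2 each), and ab, bab1 and ttk (1 each), with none at lola, rib or bab2, and none of the 5 summits within 500 bp of a start site held it. Over 500 bp from a start site, 10 of 33 windows held TAATTA (30.3%, Wilson interval 17.4 to 47.3), against 16.6% (15.5 to 17.9) of the others. Among all other windows at long genes the share was 16.0%. These relations were not tested either. A Tramtrack site, AGGACAA or AGGATAA, was in 2 windows, 1 of lola and 1 of ttk (5.26% against 3.08%). The paired-domain core GTCACGC or GTCACGG, the DRE element TATCGATA, the M1BP element GGTCACACT and the Zelda site CAGGTAG were in 0 of 38 windows each, which allows shares of up to 9.18% (Wilson), against 2.68%, 2.65%, 1.65% and 0.893% of the others. With 38 windows such low shares could not be told from those of the rest. The GC content of the windows had a median of 37.8%, against 36.3% for the others.

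**Figure D5:**
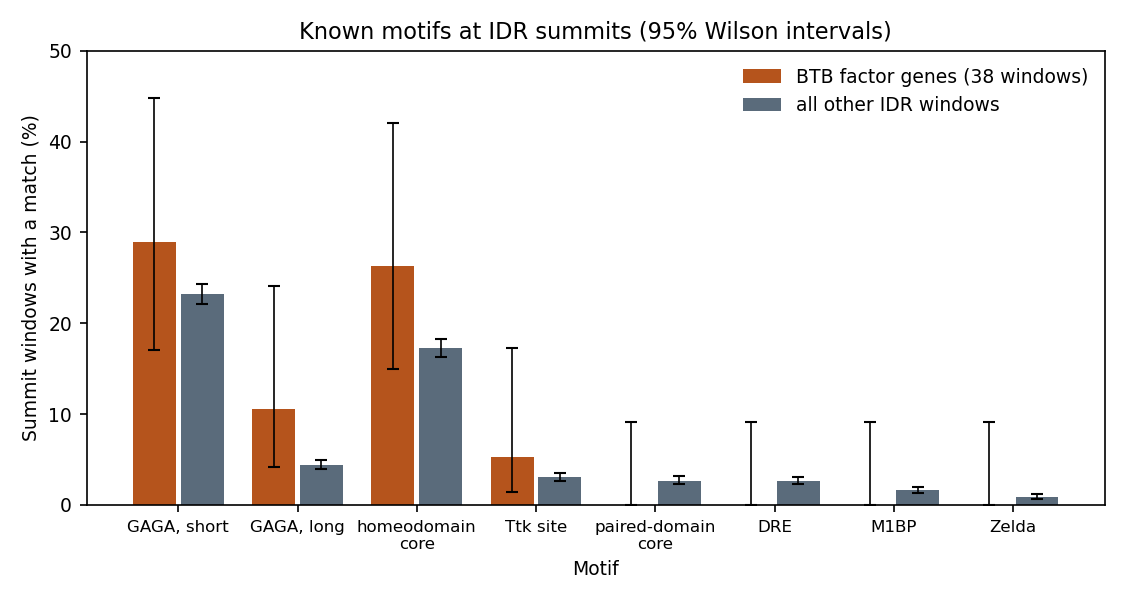
Share of summit windows (100 bp to either side) with a match to each motif on either strand, for the 38 windows of the BTB genes and all other IDR windows, with GAGAG as the short GAGA form, GAGAGAG as the long one and TAATTA as the homeodomain core; error bars are 95% Wilson intervals, which cover counting error only. The intervals of both sets overlap for all 8 motifs.

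The 170 pooled peaks of the BTB genes that were not reproducible were set beside the other such pooled peaks. They were within 500 bp of a start site in 14.1% of cases (Wilson interval 9.67 to 20.1), against 17.7% (17.2 to 18.2), held GAGAG in 24.7%, against 23.9%, and held TAATTA in 18.8% (13.7 to 25.4), against 14.9% (14.5 to 15.4). They lay farther from start sites, with a median distance of 5186 bp against 3429 bp. No comparison with long genes was made for these pooled peaks, so these values are not matched for gene length.

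Of 10 other BTB factor genes taken from general knowledge (br, fru, mod(mdg4), Cp190, ken, lolal, mamo, CG15812, BtbVII and lov), 7 had at least 1 reproducible peak, against 23.9% of all genes and 57.1% of long genes. Their gene bodies ranged from 2.03 kb at CG15812 to 144.4 kb at mamo, so neither share is matched to their lengths. The 10 genes had 12 peaks in all, a median of 1 per gene and at most 3, at mod(mdg4), whose isoforms include insulator and other chromatin proteins. Its highest peak was at rank 728. br, a zinc-finger gene of the ecdysone response, had 2 peaks, lolal had 2, both within 500 bp of its start sites, and lov had 2. Cp190, CG15812 and BtbVII had none assigned to them, although a reproducible summit assigned to another gene lay within 500 bp of 1 of the Cp190 start sites. In the pooled list lov had 32 peaks, as many as chinmo. Outside the group, the gene most like psq in number of reproducible peaks and then in length of assigned sequence was Hr4, with 8 peaks over 66.8 kb against 66.7 kb, though its highest peak stood at rank 66. For chinmo it was cic, with 7 peaks over 72.7 kb against 72.0 kb and a highest peak at rank 1220.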

How the data were processed

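Whole-embryo chromatin from 3 biological replicates was precipitated with an antibody against GFP after sonication to 200 to 800 bp, per the labels. The replicate and pooled lists were called against a control file, and the reproducible list was drawn from all 4 of them at an irreproducible discovery rate (IDR) threshold, as the deposited notes state. Which aligner and caller ran, and at what threshold, is not given in the sources used here. Signal values are the deposited peak heights, whose scale is the authors' own and not shared by the lists, so ranks were formed inside each list. No result rests on the −log10 q-value that the authors deposited for each peak. Depth per sample is unknown, and intervals (95%, Wilson) cover counting error only.

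Summits were the start plus the deposited offset. Arms 2L, 2R, 3L, 3R, 4 and X were used, with genes of Ensembl release 115 on dm6 and sequence of RefSeq release 6, the same assembly. Start sites were those of protein-coding transcripts. Sequence is shown only for members on 2L, 3L and 3R. Summits within 100 bp counted as shared, and windows spanned 201 bp. Replicates were compared through as many top peaks as the IDR list holds. P-values come from exact paired permutation tests over the 3 replicates (two-sided, Benjamini-Hochberg over 3 tests) and measure only the spread between these samples. Assignment, sharing and motif counting were tested on simulated data. Python 3.11.15, pandas 2.3.3, numpy 2.4.6, scipy 1.17.1 and matplotlib 3.10.9 were used.

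The members, lists and tests were chosen with earlier results of these data known. Named genes are all members, genes nearest to a summit in a member's body, neighbours, 10 other BTB genes and 1 look-alike of the 2 members with the most peaks. The symbols pfk and Tkr of that list are CG15812 and lov in the annotation. All 9 members and all 10 others matched a gene. Alternatives were the assignment rule, the list and its depth, the shared distance, the window sizes and leaving out each replicate. Signal tracks were not analysed here.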

Additional observations from a re-analysis of the deposited data

How the results depend on the processing

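Of 50 alternatives 36 kept their value within counting error, the replicate SD or 1.5 times the count, and 14 moved. Assigning only summits within 1000 bp of a start site left 4 genes and 6 reproducible peaks. The share of all genes was 15.6%, and long genes were not compared. The stronger 50% of the list left 8 genes (ttk was lost) and 17 peaks. Gene bodies alone gave 27 peaks. Letting the start sites of all annotated genes, non-coding ones included, compete for summits gave 32 peaks, still at 9 genes. Counting overlapping peaks once, an alternative chosen after seeing the data, gave 35. The mean number of BTB peaks in the replicates' lists was 18.7 with the top 2873 of each, 8 with the top 1000 and 212 with the whole lists, and 37.5 to 39.5 without one replicate. The share of reproducible peaks found in all replicates was 42.1% at 50 bp and 73.7% with any interval overlap, 86.8% in whole lists and 34.2% in the top 2873, and 63.2% to 73.7% without one replicate, against 42.0%, 63.5%, 89.4%, 31.8% and 62.6% to 68.1% of other peaks. It was thus below the other peaks, not above them, in whole lists and without replicate 1 (63.2% against 65.8%). GAGAG was in 13.2% of windows 50 bp to either side, 52.6% at 200 bp and 10.5% in its longer form, against 11.0%, 46% and 4.41% elsewhere; over gene bodies alone it was 22.2% against 23.2%, so the sign of that difference turned. The median signal percentile also changed sides in the pooled list, at 51.4 for BTB peaks. The start-site share stayed between 5.88% and 18.5% under every alternative run, below the other peaks each time. Without replicate 2 the difference in median percentile in the top lists shrank from -3.21 to -0.05. That was still labelled unchanged, because the sign held. No paired analysis was possible because the replicates form 1 group, which leaves no second group to pair them with; the paired permutation tests compare BTB peaks with other peaks inside each replicate. With 38 peaks and unknown depth, low motif shares and small differences cannot be resolved.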

Other observations

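The bab1 window before the gene held the run ATTAGTTCC, an ATTA core directly followed by GTTCC, the partner of ATTA in a composite site that the Paired protein is known to bind. It was noticed on reading the window and then counted on either strand in all windows, where it was in 1 of 38 (2.63%, Wilson interval 0.466 to 13.5) at BTB genes and in 20 of 5708 (0.350%, 0.227 to 0.541) elsewhere. A single match in a run chosen this way carries no test.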
